A study of Mus musculus with 8 samples.

Results

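The genes described here encode the ionotropic glutamate receptors of the AMPA and NMDA types, the channels that carry fast excitatory transmission in the brain. They were 10 of the Gria and Grin genes, namely Gria1, Gria2, Gria3, Gria4, Grin1, Grin2a, Grin2b, Grin2c, Grin2d and Grin3a, chosen by symbol, though with earlier results of these data known, of 22430 genes in the count table. Grin3b is not among the 10 and is given beside them. All 10 were matched by Ensembl identifier and all 10 passed the filter on low counts. Poly(A) RNA was sequenced from brains of 8 male C57Bl/6JRj mice, 4 at an age of 6 months (young adult, 6m) and 4 at 24 months (aged, 24m), and the labels name no transgene or treatment. The tissue is called whole brain in one label and brain hemisphere in another, so neurons and glia of all regions contribute to each value.

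AMPA receptors are assembled as tetramers of the subunits GluA1 to GluA4, which Gria1 to Gria4 encode, and open within milliseconds of glutamate release. NMDA receptors need the obligatory subunit GluN1, encoded by Grin1, together with GluN2 subunits (Grin2a to Grin2d) or GluN3 subunits (Grin3a and Grin3b), bind glycine or D-serine as well as glutamate, and admit calcium when the membrane is depolarised. Which subunits are present sets conductance, kinetics and calcium permeability. During early postnatal life the forebrain moves from GluN2B towards GluN2A, while GluN2C is known from cerebellar granule cells and astrocytes, and GluN2D from interneurons, thalamus and brainstem.

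The 10 genes are paralogs, and reads can be assigned to one of them only where their sequences differ, so a pair of conserved coding stretches is printed. The Q/R site in the pore loop of the AMPA subunits is shown because it decides calcium permeability: in Gria2 the adenosine in the middle of the glutamine codon is deaminated by ADAR2 in the RNA, so that arginine is read. Each stretch is 30 bases of the coding strand of the GRCm39 genome, with the codon of that site in capitals.
Gria1: ggggccttcatgCAGcaaggatgtgacatt
Gria2: ggtgcctttatgCAGcaaggatgcgatatt
Gria3: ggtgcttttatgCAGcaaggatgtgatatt
Gria4: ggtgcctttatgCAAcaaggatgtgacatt
They lie at chr11:57133908-57133937 (plus strand, exon 11), chr3:80614203-80614232 (minus strand, exon 11), chrX:40699130-40699159 (plus strand, exon 11) and chr9:4464122-4464151 (minus strand, exon 12), each within the coding part of the canonical transcript. Compared with Gria1, the stretch differed at 4 bases in Gria2, 4 in Gria3 and 3 in Gria4, and the glutamine codon reads CAG in Gria1, Gria2 and Gria3 and CAA in Gria4. The genome encodes glutamine in all 4 genes, and editing itself was not measured, since the files hold 1 count per gene. The pore-lining stretch at the end of the third membrane segment was searched as an exact run of residues in the canonical transcripts. That exact run was found in all of the 10 except Grin3a, where a stretch that differs at any residue would have been missed. It is shown for 3 subunits with capitals at the bases that differ from Gria1.
Gria1: tcatacacagccaacctggctgccttc
Grin1: tcCtacacTgccaacctggcAgccttc
Grin2a: AGTtacacagccaacctggctgccttc
These 27 bases lie at chr11:57174397-57174423 (Gria1, exon 12), chr2:25187211-25187237 (Grin1, exon 14) and chr16:9471311-9471337 (Grin2a, exon 9). Relative to Gria1, 3 bases differed in Grin1 and 3 in Grin2a.

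Counts per library totalled 63460940 to 103462414 over all genes, and a subunit gene received between 139 counts (Grin2a in one 6m library) and 84752 counts (Grin1 in one 24m library). Levels are given as counts per 1e+06 counts of the library (CPM), scaled by the trimmed mean of M values (TMM) method, and differences as log2 fold changes (log2FC) of 24m over 6m with standard errors (SE) from the quasi-likelihood test of edgeR. A gene was called higher or lower at an adjusted p of at most 0.05 and a log2FC of at least 0.58 in size. As a check on tissue, markers of neurons such as Snap25 and of excitatory neurons such as Slc17a7 (1380 CPM at 6m and 1668 CPM at 24m) were abundant at both ages. The share of counts from 13 mitochondrially encoded genes was 5.26 to 6.52% at 6m and 3.18 to 3.69% at 24m, and its part in the results was not tested.

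At 24m, transcripts of 6 of the 10 subunits were higher than at 6m and none was called lower, while Grin3b, outside the 10, was called lower (log2FC -0.95). The 6 were Gria1, Gria3 and Gria4 of the AMPA family, and Grin1, Grin2a and Grin3a of the NMDA family. Of all 16730 genes tested, 25.3% were called higher and 18.3% lower by the same rule (43.6% in all), and 32.7% were higher and 29.9% lower by adjusted p alone, which gave the same 6 subunits. The median log2FC was 0.87 over the 10 subunits (1.24 over the 4 AMPA and 0.62 over the 6 NMDA subunits) beside -0.0034 over all genes. With a trend over exonic length (the union of annotated exons) removed, 5 of the 6 kept their call and Grin1 did not. In the same 6 genes every 24m library lay above every 6m library, a pattern found in 28.4% of tested genes, while the libraries of the 2 ages overlapped for Gria2, Grin2b, Grin2c and Grin2d. In bulk tissue, fewer cells of a type and less RNA per cell cannot be told apart, and the same holds for more.

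**Figure D1:**
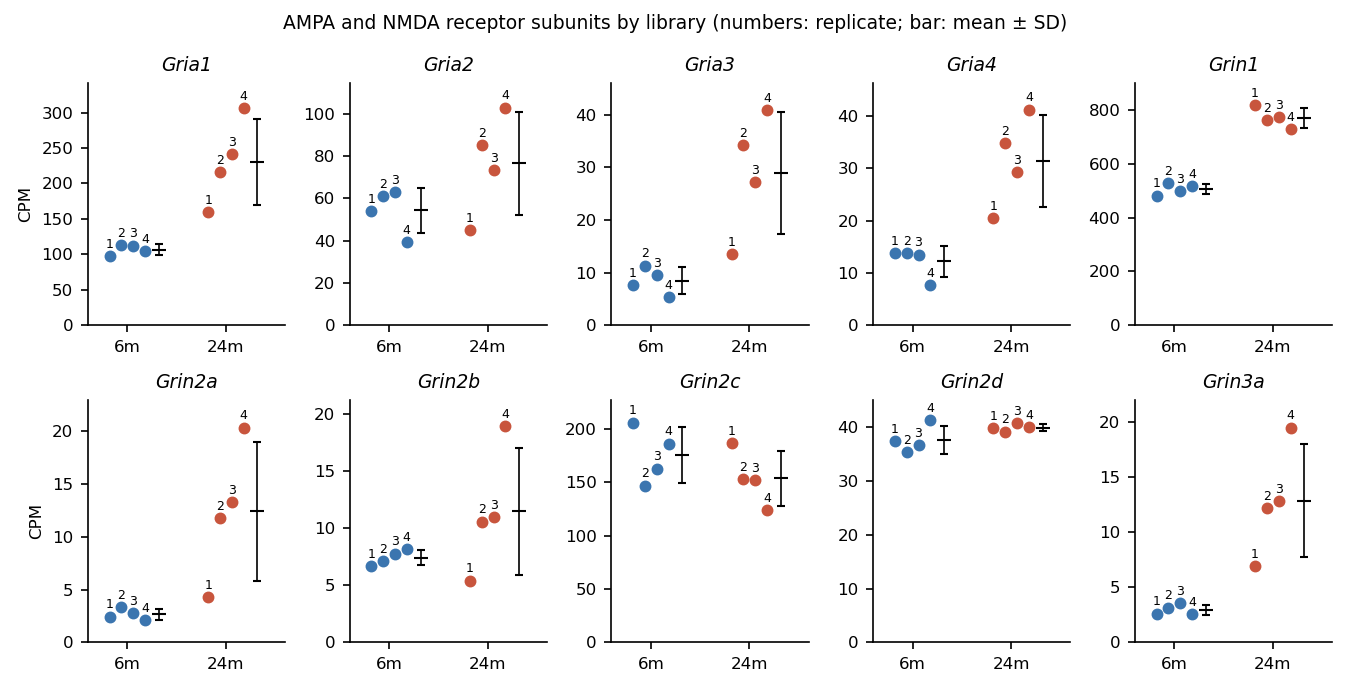
CPM (TMM-scaled, linear axes from 0, a separate scale per gene) of the 10 subunits in the 4 libraries of each age, with replicate numbers and the mean ± SD beside each group. The 24m points lie above all 6m points for Gria1, Gria3, Gria4, Grin1, Grin2a and Grin3a, and 24m replicate 1 is the lowest 24m library for 7 of the 10 genes.

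Gria1 encodes GluA1, the subunit that is inserted into synapses during long-term potentiation (ENSMUSG00000020524, chromosome 11, 56902153 to 57221080, plus strand). In replicates 1 to 4 it stood at 97.3, 113, 112 and 104 CPM at 6m and at 159.5, 215.5, 242 and 306 CPM at 24m, and values of each age follow that order throughout. The 6m libraries lay close together and the 24m libraries were spread, with no overlap. The mean rose from 107 ± 7.44 to 231 ± 60.8 CPM (SD, n = 4), a log2FC of 1.11 ± 0.17 (SE, adjusted p = 0.000509, edgeR).

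Gria2 encodes GluA2, the subunit that makes AMPA receptors impermeable to calcium once its RNA is edited at the site printed above (ENSMUSG00000033981, chromosome 3, 80588757 to 80710538, minus strand). It stood at 54.1, 61.1, 63.1 and 39.3 CPM at 6m and at 44.9, 85.3, 73.5 and 103.0 CPM at 24m. Of the 24m libraries, 3 exceeded every 6m library, whereas 24m replicate 1 lay within the 6m range. The difference between the means of 54.4 ± 10.8 and 76.7 ± 24.4 CPM did not pass the test (log2FC 0.50 ± 0.24, adjusted p = 0.0927, edgeR). Without 24m replicate 1, Gria2 was called higher (log2FC 0.69, adjusted p = 0.00273, edgeR), and without 24m replicate 4 its log2FC was 0.32 (adjusted p = 0.244, edgeR).

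Gria3 encodes GluA3 and is X-linked (ENSMUSG00000001986, chromosome X, 40489476 to 40767490, plus strand). Its level was 7.56, 11.3, 9.46 and 5.31 CPM at 6m and 13.5, 34.1, 27.2 and 40.8 CPM at 24m. Even 24m replicate 1, far below the other three, was above the highest 6m library. The mean of 8.40 ± 2.56 CPM rose to 28.9 ± 11.7 CPM, which gave the largest log2FC of the AMPA family at 1.78 ± 0.33 (adjusted p = 0.0014, edgeR).

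Gria4 encodes GluA4, a subunit with fast kinetics known from parvalbumin interneurons, cerebellum and brainstem (ENSMUSG00000025892, chromosome 9, 4417604 to 4796326, minus strand). It was measured at 13.8, 13.8, 13.5 and 7.63 CPM at 6m and at 20.5, 34.8, 29.2 and 41.2 CPM at 24m. Here 6m replicate 4 stood apart below the other 6m libraries, and the ages did not overlap. The log2FC was 1.37 ± 0.24 (adjusted p = 0.00107, edgeR), from 12.2 ± 3.04 to 31.4 ± 8.78 CPM.

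Grin1 encodes GluN1, the subunit present in every NMDA receptor, and was the most abundant of the 10 (ENSMUSG00000026959, chromosome 2, 25181186 to 25209226, minus strand). Its level was 483, 528, 500 and 518 CPM at 6m and 818, 764, 774 and 731 CPM at 24m. The libraries of each age lay close together, with a coefficient of variation of 3.9% at 6m and 4.7% at 24m, and 24m replicate 1 was here the highest of its group. The mean rose from 507 ± 19.9 to 772 ± 36.1 CPM, and the log2FC of 0.61 ± 0.08 lay just above the fold threshold (adjusted p = 0.000204, edgeR). This call was lost when a trend of fold change over exonic length was removed, as described with the other lengths. On the other strand the gene overlaps Lrrc26, which had 1171 counts over all 8 libraries, and Grin1os, which was not analysed here.

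Grin2a encodes GluN2A, the subunit of mature forebrain synapses (ENSMUSG00000059003, chromosome 16, 9385762 to 9813424, minus strand). It stood at 2.42, 3.35, 2.74 and 2.103 CPM at 6m and at 4.29, 11.8, 13.3 and 20.3 CPM at 24m. The lowest 24m library was only slightly above the highest 6m library, while the other three were well above it. The rise from 2.65 ± 0.533 to 12.4 ± 6.57 CPM was the largest of the 10 subunits in this fit, with a log2FC of 2.22 ± 0.40 (adjusted p = 0.00107, edgeR). Grin3a (2.11 ± 0.28) was within these errors. It stood above Grin2a with the length trend removed (1.59 against 1.55) and with the GC trend removed (1.96 against 1.93).

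Grin2b encodes GluN2B, the subunit that predominates early in development and prolongs NMDA currents (ENSMUSG00000030209, chromosome 6, 135690231 to 136150548, minus strand). Its level was 6.71, 7.13, 7.78 and 8.16 CPM at 6m and 5.43, 10.6, 10.96 and 19.0 CPM at 24m. As for Gria2, 3 of the 24m libraries were above the 6m range, but 24m replicate 1 was below every 6m library. The log2FC of 0.63 ± 0.30 was past the fold threshold but not the test (adjusted p = 0.0964, edgeR), with means of 7.44 ± 0.649 and 11.5 ± 5.60 CPM. Without 24m replicate 1 it was called higher (log2FC 0.87, adjusted p = 0.0018, edgeR), and without 24m replicate 4 the log2FC was 0.27 (adjusted p = 0.324, edgeR).

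Grin2c, which encodes GluN2C, was the one subunit with a lower mean at 24m (ENSMUSG00000020734, chromosome 11, 115139992 to 115158525, minus strand). It stood at 206, 147, 163 and 186 CPM at 6m and at 187, 153, 152 and 124 CPM at 24m. The ranges of the ages overlapped, with 24m replicate 4 below all 6m libraries and 6m replicate 1 above all 24m libraries. The difference between the means of 175 ± 26.03 and 154 ± 25.6 CPM did not pass the test (log2FC -0.19 ± 0.14, adjusted p = 0.264, edgeR).

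Grin2d, which encodes GluN2D, a subunit with very slow deactivation, varied least of the 10 at 24m (ENSMUSG00000002771, chromosome 7, 45481304 to 45527802, minus strand). It stood at 37.3, 35.3, 36.6 and 41.3 CPM at 6m and at 39.8, 39.1, 40.7 and 40.0 CPM at 24m. All 24m libraries fell inside the 6m range, and the log2FC of 0.08 ± 0.08 did not pass the test (adjusted p = 0.367, edgeR). Its locus overlaps Kdelr1 on the other strand, which had 42512 counts over all libraries.

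Grin3a encodes GluN3A, a glycine-binding subunit that lowers the calcium permeability of NMDA receptors and is known for high expression in the juvenile brain (ENSMUSG00000039579, chromosome 4, 49661611 to 49845847, minus strand). It was measured at 2.62, 3.15, 3.53 and 2.59 CPM at 6m and at 6.94, 12.2, 12.8 and 19.5 CPM at 24m. Every 24m library was well clear of the 6m range. The mean rose from 2.97 ± 0.454 to 12.9 ± 5.15 CPM (log2FC 2.11 ± 0.28, adjusted p = 0.000238, edgeR). Its partner gene Grin3b moved the opposite way, with 9.06 ± 2.01 CPM at 6m and 4.70 ± 0.719 CPM at 24m (log2FC -0.95 ± 0.18, adjusted p = 0.00157, edgeR).

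Levels between genes were compared per kilobase of exonic sequence, where exonic length is the union of all annotated exons. At 6m, Grin1 stood first with 45.7 ± 1.79 CPM per kilobase, followed by Grin2c (15.7 ± 2.34) and Gria1 (13.02 ± 0.908), whose libraries overlapped. Grin2d (4.79 ± 0.330) and Gria2 (1.98 ± 0.393) came next, each clear of its neighbours. Gria4 (0.676 ± 0.169) and Gria3 (0.661 ± 0.202) overlapped, as did Grin2b (0.292 ± 0.0255) and Grin3a (0.226 ± 0.0346), and Grin2a was lowest with 0.148 ± 0.0297. At 24m, Grin1 (69.6 ± 3.25) was followed by Gria1 (28.1 ± 7.41), Grin2c (13.8 ± 2.30) and Grin2d (5.08 ± 0.0823), which did not overlap one another. The other 6 subunits ran from Gria2 (2.79 ± 0.890) over Gria3 (2.27 ± 0.918), Gria4 (1.74 ± 0.487), Grin3a (0.978 ± 0.392) and Grin2a (0.692 ± 0.366) to Grin2b (0.451 ± 0.220), and each overlapped the next. Gria1 thus stood below Grin2c in mean level at 6m and above it at 24m, and Grin2a moved from below Grin2b and Grin3a to between them. With the length of the canonical transcript in place of the exon union, Grin2c (32.7) was clear of Gria1 (18.1) at 6m, Grin3a (0.386) stood above Grin2b (0.307), and Gria1 and Grin2c overlapped at 24m. Differences between genes in base composition or read coverage were not corrected, so the order is one of counts per length.

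Because both terms of a ratio come from the same library, 9 ratios of subunit counts were compared, 3 of AMPA subunits over Gria2, 5 of NMDA subunits over Grin1 and that of Grin2a over Grin2b. Each was tested by an exact two-sided permutation over the 70 assignments of 4 and 4 libraries, whose smallest p is 0.0286, and adjusted over the 9 pairs. Within the AMPA family, Gria3 and Gria4 rose relative to Gria2. The log2 ratio of Gria3 over Gria2 was -2.84, -2.44, -2.74 and -2.89 at 6m and -1.73, -1.32, -1.44 and -1.33 at 24m, a difference of 1.27 (exact permutation p = 0.0286, adjusted p = 0.0429). That of Gria4 over Gria2 differed by 0.91 (exact permutation p = 0.0286, adjusted p = 0.0429). For Gria1 over Gria2 the difference was 0.62, with 6m replicate 4 (1.41) inside the 24m range of 1.34 to 1.83 and the other 6m libraries at 0.83 to 0.89 (exact permutation p = 0.0571, adjusted p = 0.0735). Per kilobase of exonic sequence, Gria2 made up 12.1 ± 1.69% of AMPA subunit transcripts at 6m and 7.92 ± 0.92% at 24m (SD, n = 4), while Gria1 made up 79.8 ± 3.35% and 80.8 ± 2.70%. Per kilobase of the canonical transcript, the share of Gria2 was 18.7 ± 2.21% and 12.4 ± 1.20%, and that of Gria1 67.8 ± 4.71% and 69.0 ± 3.56%.

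Among the NMDA subunits, Grin2c and Grin2d fell and Grin3a rose relative to Grin1. The log2 ratio of Grin2c over Grin1 was -1.23, -1.85, -1.62 and -1.48 at 6m and -2.13, -2.32, -2.35 and -2.56 at 24m, a difference of -0.80 (exact permutation p = 0.0286, adjusted p = 0.0429). For Grin2d the difference was -0.52 and for Grin3a 1.42, both without overlap and with the same exact permutation p and adjusted p. Grin2a over Grin1 differed by 1.44, but 24m replicate 1 (-7.58) lay inside the 6m range of -7.94 to -7.30 (exact permutation p = 0.0857, adjusted p = 0.0964). Grin2b over Grin1 differed by -0.11 (exact permutation p = 0.714), with 24m libraries from -7.24 to -5.27 on both sides of the 6m values.

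The ratio of Grin2a to Grin2b, the pair that changes places in development, had a log2 value of -1.47, -1.09, -1.50 and -1.95 at 6m and of -0.34, 0.15, 0.28 and 0.10 at 24m. Counts of Grin2a were thus 0.353 of those of Grin2b at 6m and 1.03 of them at 24m, as geometric means. All 24m libraries, replicate 1 included, lay above all 6m libraries (difference 1.55, exact permutation p = 0.0286, adjusted p = 0.0429). Of the 9 ratios, 6 passed, at the smallest p the design allows, which a ratio reaches when the libraries of the ages do not overlap. Single genes were separate in this way in 28.4% (higher at 24m) and 26.8% (lower at 24m) of all tested genes. The share over gene pairs in general was not computed. Ratios over the same gene, Gria2 or Grin1, are not independent of one another. With 6m replicate 1, 2 or 3 left out (35 assignments, smallest p 0.0286), the adjusted p of the 6 ratios that passed went to 0.0514, except that of Grin3a over Grin1, which went to 0.0857, and to 0.0735 without 6m replicate 4 (exact permutation). With any 24m library left out, all 6 still passed. With any of the 8 libraries left out, the difference ran from 1.21 to 1.36 for Gria3 over Gria2 and from 1.17 to 1.72 for Grin3a over Grin1. Conversely, Gria1 over Gria2 passed without 6m replicate 4 (difference 0.76, exact permutation, adjusted p = 0.0429), with the length trend removed (1.02) and with the GC trend removed (0.76, both exact permutation, adjusted p = 0.0367), and Grin2a over Grin1 without 24m replicate 1 (difference 1.91, exact permutation, adjusted p = 0.0367). Grin2c was the largest GluN2 transcript per kilobase at both ages, at 74.9 ± 2.38% of the 4 Grin2 genes at 6m and 68.6 ± 5.62% at 24m, while Grin2a stood at 0.73 ± 0.23% and 3.59 ± 2.13%. Per kilobase of the canonical transcript, the shares were 81.4 ± 1.89% and 76.5 ± 4.40% for Grin2c and 0.46 ± 0.15% and 2.35 ± 1.44% for Grin2a. The 3' untranslated region made up 7.6% of the canonical transcript in Grin2c and 16.6% in Grin2d. It made up 66.8% in Grin2a, 77.8% in Grin2b and 67.5% in Gria2. Effects of transcript structure, base composition or read coverage on these shares and on those of the AMPA subunits were not tested. The shares are of counts per length, not of receptor molecules.

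**Figure D2:**
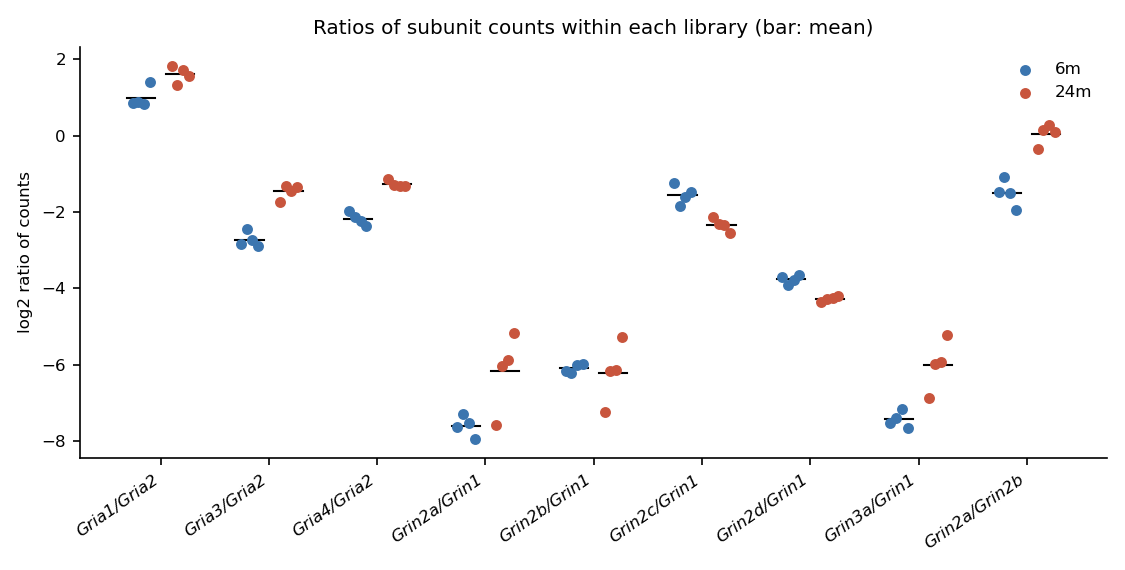
Log2 ratio of the counts of subunit pairs in each of the 4 libraries of 6m and 24m, with bars at the means. The ages are separate for Gria3 and Gria4 over Gria2, for Grin2c, Grin2d and Grin3a over Grin1 and for Grin2a over Grin2b, and overlap for the other three pairs.

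The subunit genes share a property that the choice of genes did not use, namely a long exonic sequence, taken as the union of annotated exons. Their canonical transcripts were shorter, from 4318 bases (Grin1) to 24238 bases (Grin2b). Exonic lengths ran from 7860 bases (Grin2d) to 27443 bases (Gria2), beside a median of 5768 over tested genes, and 6 of the 10, Gria2, Gria3, Gria4, Grin2a, Grin2b and Grin3a, were in the longest of 10 length classes of equal size. In these libraries the log2FC of all genes went up with exonic length (Spearman correlation 0.42 across 16677 genes, which are not independent replicates). In the longest class, from 12369 bases, the median log2FC was 0.52, the quartiles were -0.045 and 1.16, and 46.6% of genes were called higher. Against that class, Gria3, Gria4, Grin2a and Grin3a lay above the upper quartile, while Gria2 and Grin2b lay near the median. Gria1 (8200 bases) lay above the upper quartile of its own class (0.95), Grin1 (11089 bases) lay between median (0.41) and upper quartile (1.05), and Grin2c (11146 bases) was below the lower quartile of -0.12. Subunits also differed in base composition, with a GC content of the canonical transcript of 59.9% in Grin1, 61.8% in Grin2c and 65.0% in Grin2d, and of 37.6% (Gria2) to 49.7% (Grin3a) in the other 7.

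**Figure D3:**
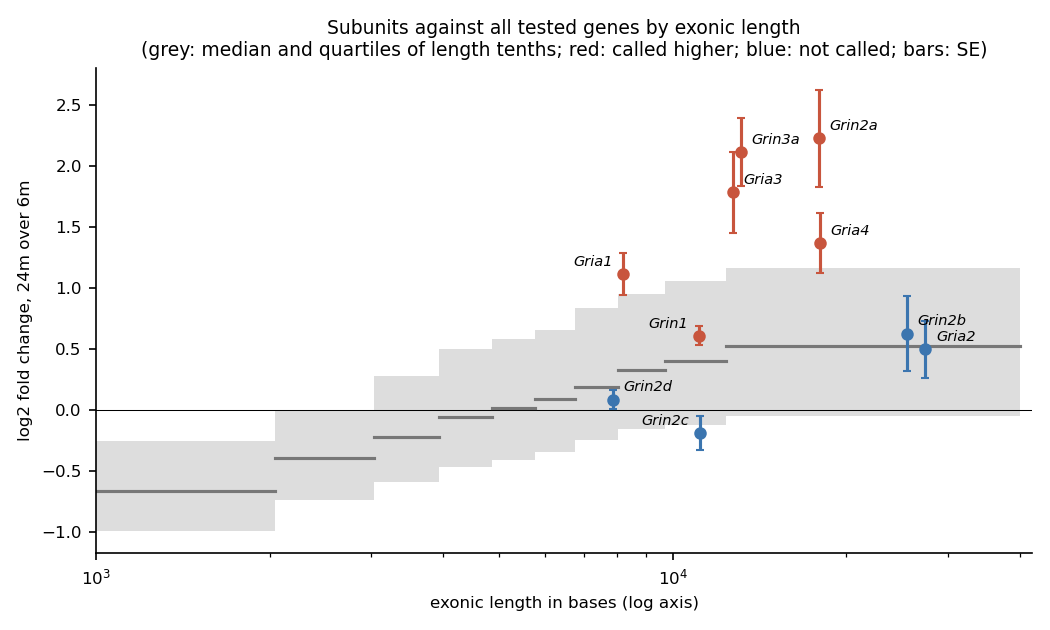
Log2FC (24m over 6m, with SE) of the 10 subunits against exonic length in bases on a log axis, over grey boxes for the quartiles and lines for the median of all tested genes in 10 length classes of equal size. Gria1, Gria3, Gria4, Grin2a and Grin3a lie above the upper quartile of genes of their length, and the median rises from -0.67 in the shortest to 0.52 in the longest class.

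The length trend also differed between libraries of 1 age. As the smoothed difference in log2 level between genes of 12369 and of 2045 bases, relative to the average library, it was -0.55, -0.33, -0.35 and -0.63 in the 6m libraries and -0.06, 0.53, 0.53 and 0.84 in the 24m libraries. The 24m library with the smallest value, replicate 1, was lowest and that with the largest, replicate 4, was highest at 24m for Gria1, Gria2, Gria3, Gria4, Grin2a, Grin2b and Grin3a. The order was the reverse for Grin1 and Grin2c. With library totals in place of TMM factors, Gria2 (log2FC 0.72, adjusted p = 0.0449, edgeR) and Grin2b (0.87, adjusted p = 0.0484, edgeR) were called higher too, which made 8 subunits, while 32.6% of all genes were called higher and 10.4% lower and the median of all genes stood at 0.21. When the length trend was removed with a smoothed offset per library, Gria1 (log2FC 0.80), Gria3 (1.28), Gria4 (0.76), Grin2a (1.55) and Grin3a (1.59) were still called higher, and 21.3% of all genes were. Grin1 lost its call (log2FC 0.20, adjusted p = 0.17, edgeR), and Grin2c was called lower (log2FC -0.59, adjusted p = 0.0285, edgeR), as were 17.2% of all genes. Gria2 and Grin2b turned to -0.25 (adjusted p = 0.0476, edgeR) and -0.17 respectively, both within the fold threshold, and Grin2d to -0.19. The difference between ages in the log2 ratio of Grin2a to Grin2b, whose exonic lengths are both in the longest class, ran from 1.40 to 1.69 over its 14 alternatives, of which 4 missed the threshold.

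**Figure D4:**
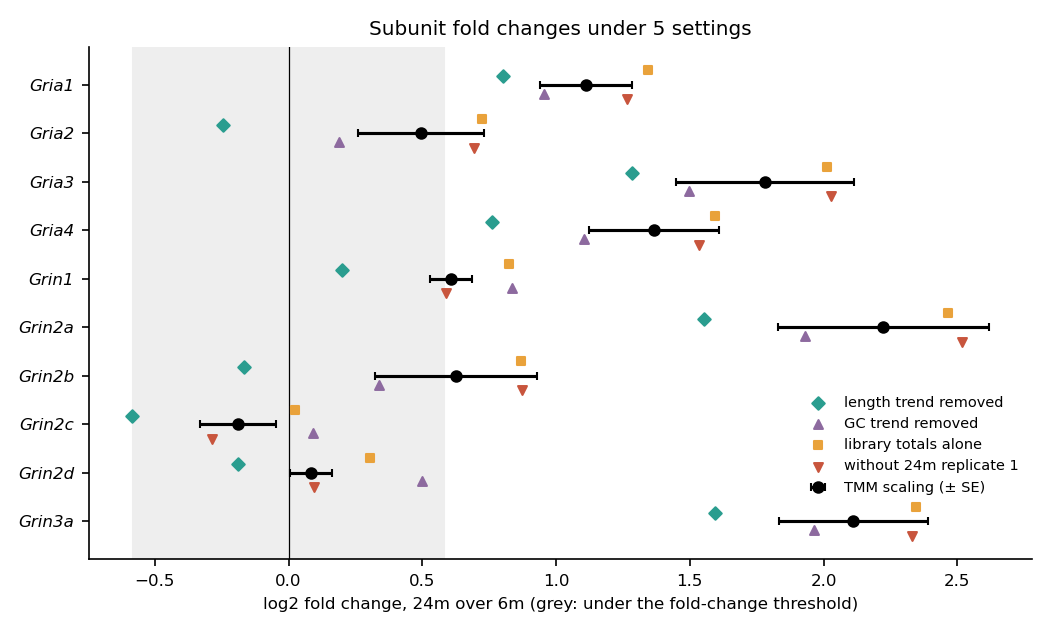
Log2FC (24m over 6m) of the subunits with TMM scaling (black, with SE) and under 4 alternatives, namely scaling by library totals, removal of the trend over exonic length or over GC content, and without 24m replicate 1, with values under the fold threshold of 0.58 in size in grey. Gria1, Gria3, Gria4, Grin2a and Grin3a lie to the right of it throughout, Grin1 falls to 0.20 without the length trend, and Gria2, Grin2b, Grin2c and Grin2d change side of zero.

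Other genes of the pathway were taken from 3 lists, 55 tested genes in all, of which 24 passed as higher and 3 as lower, beside 25.3% and 18.3% of all tested genes, and the median log2FC was 0.32. Auxiliary subunits, which travel with AMPA receptors and shape their gating, had 6 of 17 genes higher and 1 lower, with a median of 0.07, and 8 higher and 6 lower by adjusted p alone (32.7% and 29.9% of all genes). Their summed level was 2115 to 2357 CPM at 6m and 1654 to 2004 CPM at 24m. Cacng5, a transmembrane AMPA receptor regulatory protein, rose from 3.06 ± 0.406 to 11.01 ± 1.37 CPM (log2FC 1.84 ± 0.14, adjusted p = 2.42e-05, edgeR). Shisa6 (log2FC 1.53, adjusted p = 0.00183) and Olfm3 (1.38, adjusted p = 0.00787) followed, and Shisa7, Shisa9 and Gsg1l were the others called higher. Cacng2, stargazin, which brings AMPA receptors to the synapse of cerebellar granule cells, fell from 48.7 ± 6.79 to 32.4 ± 1.76 CPM. Its log2FC of -0.59 ± 0.11 (adjusted p = 0.00132, edgeR) was at the fold threshold, and it moved to -0.54 without 24m replicate 1, to -0.56 without 6m replicate 1 and to -0.50 without 6m replicate 4, where it was no longer called. The call was also lost with library totals (-0.36), and narrowly with limma-voom, no filter and the replicate block (all -0.58). The most abundant gene of the list, Olfm1, had 1138 ± 63.5 CPM at 6m and 779 ± 130 CPM at 24m, a log2FC of -0.55 (adjusted p = 0.00413, edgeR) that missed the fold threshold. Olfm2 (-0.44, adjusted p = 0.00524), Cnih2 (-0.24), Cacng3 (-0.26), Cacng7 (0.29) and Cacng8 (-0.22) were not called either.

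Of 15 genes for AMPA receptor assembly, trafficking and editing, 8 were called higher and none lower, with a median log2FC of 0.59. Adjusted p alone, without the fold threshold, gave 9 higher and 3 lower in this list. Frrs1l, which acts in assembly of AMPA receptors in the endoplasmic reticulum, rose from 2.27 ± 0.502 to 17.5 ± 7.27 CPM (log2FC 2.94 ± 0.34, adjusted p = 0.000119, edgeR). The neuronal pentraxins cluster AMPA receptors from outside the cell. Nptx1 (log2FC 2.62 ± 0.22, adjusted p = 3.4e-05, edgeR) and the pentraxin receptor Nptxr (1.92 ± 0.16, adjusted p = 3.28e-05, edgeR) rose, whereas the activity-regulated Nptx2 stood at 53.5 ± 6.31 CPM at 6m and 53.1 ± 5.58 CPM at 24m. Adarb1, which encodes ADAR2, the enzyme that edits the Gria2 codon printed above, was named for that role and had 24.3 ± 3.74 CPM at 6m and 88.2 ± 25.3 CPM at 24m (log2FC 1.86 ± 0.21, adjusted p = 0.000115, edgeR). Nsf, the ATPase that binds GluA2, rose with a log2FC of 1.44, and Pick1, which binds GluA2 and serves its internalisation, had a log2FC of -0.47 and was not called.

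The list of NMDA receptor partners, kinases and coagonist supply had 23 tested genes, with 10 higher, 2 lower and a median log2FC of 0.33, and 13 higher and 3 lower by adjusted p alone. Nos1, the neuronal nitric oxide synthase that calcium through NMDA receptors activates, rose from 3.88 ± 0.405 to 32.2 ± 13.7 CPM (log2FC 3.05 ± 0.31, adjusted p = 6.89e-05, edgeR). Rasgrf2, a calcium-dependent exchange factor for Ras, had a log2FC of 2.55, and Slc6a5, the neuronal glycine transporter, of 2.22, from a low level of 0.835 ± 0.194 CPM. The 2 genes called lower were Grin3b, given above, and Slc7a10, the carrier of D-serine and other small neutral amino acids, with a log2FC of -0.71 ± 0.12 (adjusted p = 0.000754, edgeR). The call of Slc7a10 was lost with library totals (-0.49) and with the GC trend removed (-0.52). Among genes of coagonist supply and turnover, the serine carrier Slc1a4 rose (log2FC 0.89, adjusted p = 0.00159, edgeR), while Srr, Dao, Slc6a9, Phgdh, Psat1, Psph, Shmt1 and Shmt2 were not called, with log2FC between -0.45 (Psph) and 0.33 (Psat1). Of these, Slc6a9, Psat1 and Psph passed by adjusted p (0.00692, 0.011 and 0.0131, edgeR) and missed the fold threshold.

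**Figure D5:**
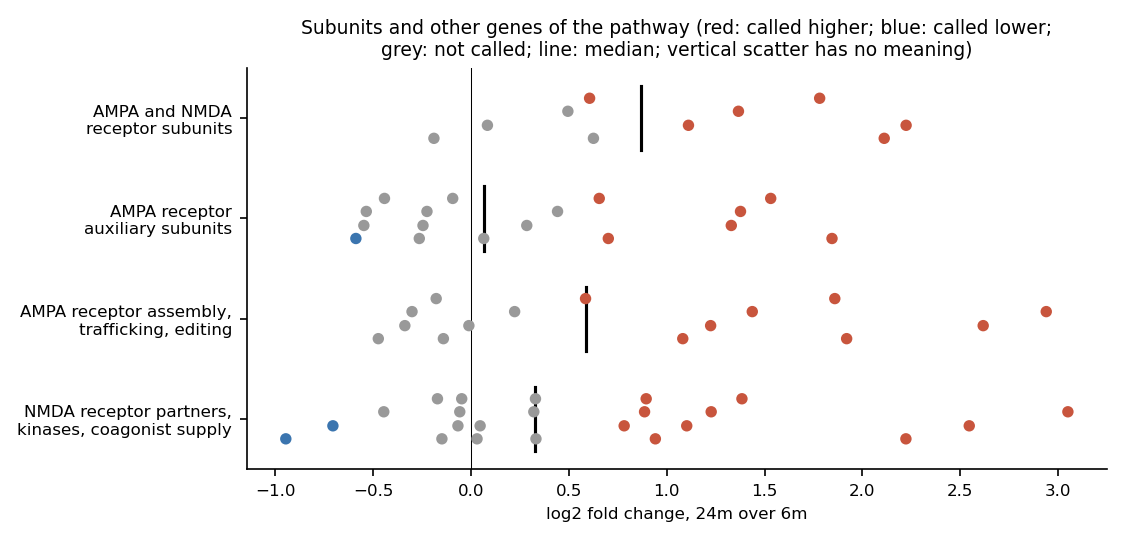
Log2FC (24m over 6m) of the 10 subunits and of the genes of the 3 pathway lists, in red if called higher, blue if called lower and grey if not called, with a line at each median. The subunits have a median of 0.87, and the lists of 17, 15 and 23 genes have medians of 0.07, 0.59 and 0.33.

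Markers of the cells that carry these receptors were measured in the same libraries, and their part in the subunit results was not tested. Each count stands beside 25.3% of all tested genes called higher and 18.3% lower, and with 3 to 8 genes a list, nothing particular is read from it. Of 6 general markers of neurons, 1 was called higher and 1 lower (median log2FC 0.03), with a summed level of 3287 to 3404 CPM at 6m and 3349 to 3584 CPM at 24m. Markers of excitatory neurons had 3 of 5 higher and none lower, while the most abundant of them, Slc17a7, was not called (log2FC 0.27). Markers of inhibitory neurons had 3 of 7 higher, among them Gad2, and 2 lower, Sst and Pvalb, with summed levels of 1398 to 1732 CPM at 6m and 1139 to 1393 CPM at 24m. Cerebellar granule cells, where Grin2c is known to be expressed, had 5 of 6 markers higher, with a summed level of 153 to 228 CPM at 6m and 296 to 308 CPM at 24m, while Grin2c itself was not called. Astrocytes had 5 of 7 markers higher with a summed level of 2655 to 3483 CPM at 6m and 2747 to 3681 CPM at 24m, and oligodendrocyte precursors had 2 of 4 higher and 1 lower. Oligodendrocytes had 1 of 6 markers higher, microglia 2 of 6, and Purkinje cells with Bergmann glia 1 of 4, with none lower, while striatal projection neurons had 2 of 8 higher and 1 lower, hippocampal neurons 2 of 5 higher and 2 lower, and endothelial cells 1 of 4 higher and 1 lower. Choroid plexus had 1 of 3 markers called higher and none lower, with a median log2FC of -0.79 and a summed level of 1766 to 3186 CPM at 6m and 803 to 2237 CPM at 24m. The 4 blood markers were all lower at 24m (median log2FC -1.46), and no marker of any list was at 0.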

How the data were processed

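Total RNA of 8 brains was poly(A)-selected and made into directional libraries, per the labels, and sequenced as paired-end reads. The authors trimmed reads with Trim Galore 0.4.11, aligned them to GRCm39 with HISAT2 2.1.0 (versions from the submitters' processing notes) and counted them per Ensembl gene (featureCounts). The deposited values are whole-number counts per gene and library, not normalized and not pooled. Strand setting and treatment of multimapping reads are not given in the sources used here, so reads shared with overlapping or antisense genes cannot be told apart.

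Of 22430 listed genes, 22281 matched the GENCODE annotation used here for GRCm39, and the other 149 held 0.312% of counts. The 12 pairs of libraries of the same age differed beyond sampling noise (chi-square per degree of freedom 8.18 to 417), so none was merged. Tests covered the 16730 genes that exceeded 5 counts in 4 or more libraries, by quasi-likelihood F tests in edgeR 4.0.16 under R 4.3.3, with TMM scaling, no covariate besides age, and Benjamini-Hochberg adjustment over all of them. Log2 ratios added 0.5 to each count. Alternatives used DESeq2 1.42.0, limma-voom (limma 3.58.1), other scalings (including quantile normalization, without the row-wise median step of the study) and filters, thinning, each library left out, a replicate term, and offsets smoothed over exonic length or GC content.

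Per pathway list, the 3 called genes with the highest and the 3 with the lowest log2FC were named with values, besides the members and genes whose role is described. Adarb1 and the further genes were named outside that rule. The members and lists were chosen with earlier results of these data known. On simulated counts for this comparison over 16730 genes, 71.5% of 200 genes given a log2 change of 1 were called, with 1 unchanged gene called, none was called when nothing was changed, and the length offset lowered the correlation between length and fold change (0.896 before, 0.035 after).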

Additional observations from a re-analysis of the deposited data

Results flagged for a closer look

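Among the 10 subunits and 9 ratios, 38 groups of 4 libraries were tested for a library far from the other three, and 2 stood out, where chance alone gives about 1 in 20 groups. The log2 level of Gria4 in 6m replicate 4 lay apart, with a gap to the nearest library of 0.959 of the range of the group, beyond Dixon's critical value, at 7.63 CPM beside 13.5 to 13.8 CPM. The log2 ratio of Gria1 over Gria2 was apart in the same library, with a gap of 0.90 of the range, at 1.41 beside 0.83 to 0.89. That library was also the lowest 6m library for Gria2, Gria3, Grin2a and Grin3a.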

How the results depend on the processing

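Of the 10 subunits, 5 to 8 were called higher over 25 alternatives (6 to 8 with a library left out), and Gria1, Gria3, Gria4, Grin2a and Grin3a were called in all of them. The log2FC of these 5 was lowest with length and GC trends removed. It stood there at 0.70, 1.11, 0.61, 1.37 and 1.49 in that order, for Gria4 just above the fold threshold. The 8 came from library totals, which moved the median log2FC of all genes to 0.21 (quantile normalization to -0.10), and from leaving out 24m replicate 1, and both added Gria2 and Grin2b. Settings were the length trend removed, the same with a replicate block, the same without 24m replicate 1, and length and GC trends removed, the last pair chosen after seeing the data. In that order, log2FC turned to -0.25, -0.24, -0.21 and -0.44 for Gria2, to -0.165, -0.18, -0.0505 and -0.34 for Grin2b, and to -0.19, -0.18, -0.23 and -0.0787 for Grin2d, which stood at 0.50 with the GC trend removed (adjusted p = 0.00185, edgeR), 0.49 with a replicate block added (0.00322) and 0.31 with library totals (0.00507), under the fold threshold. Grin1 lost its call in these 4 (0.20, 0.19, 0.0822 and 0.28) and stood at 0.97 with quantile normalization and DESeq2, 0.83 with the GC trend removed and 0.82 with library totals. The first 3 gave 1 subunit called lower, 1 and 1, namely Grin2c. Grin2c turned to 0.0251 with library totals, 0.0916 with the GC trend removed and 0.0956 with the GC trend removed and a replicate block. Pathway genes called lower went from 3 to 1 with library totals, to 6, 6, 7 and 8 in those 4 settings and to 12 by adjusted p alone. Those called higher went from 24 to 25 with library totals, to 20, 18, 22 and 19 in the 4 settings and to 30 by adjusted p alone. Of all tested genes, 32.7% were higher and 29.9% lower by adjusted p alone, and 21.3% and 17.2% with the length trend removed. The difference of Grin2b over Grin1 ran from -0.42 to 0.23 with a library left out, positive without 24m replicate 1. The cause of these changes was not tested. The sample titles do not say whether replicate numbers pair the libraries, and they were not taken as pairs. Correlations of deviations between libraries of the same number were 0.271, 0.143, 0.078 and -0.348, and only number 1 correlated best with itself. With the replicate block, 6 subunits were called higher and 0 lower, 24 pathway genes higher and 2 lower, and the ratios could not pass, since their smallest paired p is 0.125. Levels per kilobase depend on the length used. Values rest on 139 to 84752 counts, and counting error is part of the spread of the lower ones and of Grin2d.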

Other observations

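The libraries in which the subunits stood high or low were shared with other genes. Over the 8 libraries, the genes with a pattern most like the mean of the standardised log2 CPM of the 10 subunits, of 13529 compared, were Dixdc1 (Pearson r = 0.9987), Sorl1 (0.9983), Epb41l4b (0.9979), Pgap1 (0.9977) and Zc3h12b (0.9976). With each age centred on its own mean they were Akap6 (r = 0.9989), Bmpr2 (0.9984), Lmbrd1 (0.9976), Hecw1 (0.9973) and Huwe1 (0.997), so no gene was in both sets of 5. These correlations describe 8 libraries that also differ in the length trend given above. They are the highest of all genes compared, which had a mean of at least 1 CPM, so high values follow from the ranking. Pgap1 (0.339 CPM at 6m and 2.46 CPM at 24m) and Zc3h12b (0.711 and 3.19 CPM) reached that level through 24m alone. Of the subunits themselves, Grin3a (0.9915), Gria1 (0.9891) and Grin2a (0.9802) lay closest to their mean, while Grin2c ran against it (-0.65). Within age, Grin1 ran against it as well (-0.68, beside -0.84 for Grin2c).

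Promoter sequence from 250 bases before to 50 bases after the start was matched in RefSeq (GRCm38.p6) for 5 of the 10 subunits, Gria2, Gria4, Grin1, Grin2c and Grin2d, with a GC content of 56 to 70%, beside a median of 53.0% over all promoters. Motifs were searched on both strands by exact letters. A 10-base form of the NRF1 site, the capitals printed next with any base at the sixth position, was in the promoter of Gria2 alone among the 5 and in 4.63% of 32619 promoters, and the match is shown because it is the only one.
Gria2: ctcgagtcGCGCACGCGCgcccggga
It lies at chr3:80802813-80802838 on the minus strand of that build, and the motif begins at base 6 after the start. The letters GGGCGG of the Sp1 site were in Grin1 (1 match) and Grin2c (3 matches) and in 35.9% of promoters. TGACGTCA of the cAMP response element (1.8% of promoters) and TATAAA (13.7%) were in none of the 5.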
